A study of Homo sapiens with 12 samples.

Results

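The response of the melanoma cell line MMACSF to 24 h of BRAF inhibition was described from 4 of the 12 RNA-seq libraries of the study: 2 libraries of cells kept in the vehicle DMSO and 2 of cells kept for 24 h in 0.2 μM vemurafenib. The libraries were taken by their labels, which give the line, the treatment, the time and the replicate number. MMACSF is an established line, grown in DMEM/F12 medium with serum, that carries a mutant BRAF kinase per the study. Both groups are therefore the same cells in the same medium and differ by the drug, and they represent 1 line only. Vehicle and drug cells were kept for 24 or 48 h per the study, and which time the DMSO libraries had is not given. The other libraries are MMACSF at 48 h of vemurafenib and the line COLO858 under the same 3 conditions, each with 2 replicates. Replicates are separate plates, and nothing states whether they came from separate cultures, so the p-values below measure only the spread between these libraries, which may be technical.

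Mutant BRAF signals without pause through the kinases MEK and ERK. Active ERK drives the transcription of its own brakes (the Sprouty proteins and the dual-specificity phosphatases), of immediate-early and ETS transcription factors and of cyclin D1, which starts the cell cycle by way of CDK4, RB and the E2F factors. Vemurafenib blocks the mutant kinase. In melanoma cells the same pathway stands against the pigment cell programme run by MITF and SOX10 and holds down the pro-apoptotic protein BIM, so loss of ERK signalling is known for cell-cycle exit, differentiation and a lowered threshold for apoptosis.

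The values are the authors' FPKM (fragments scaled by transcript length and by library size) for 23273 genes. Of these, 12148 genes had a mean of at least 1 FPKM under DMSO or at 24 h and were tested, with 267 small RNA genes left out. Fold-changes are on the log2(FPKM + 1) scale, which understates the change of weakly expressed genes. The call rests on limma, fitted without the replicate number, with a two-sided test and a threshold of 0.01 on the Benjamini-Hochberg adjusted p. Counts with the replicate number as a block are given beside the list counts. Depth is unknown. Genes at 1 FPKM or more numbered 11679 and 11779 in the DMSO libraries and 11958 and 11972 at 24 h. Small RNA genes took 21.8% and 26.9% of all FPKM in the replicate 1 libraries of DMSO and 24 h, and 33.1% and 39.4% in the replicate 2 libraries. Of the 10 melanoma markers examined, 9 were above 1 FPKM in all 4 libraries (SOX10, MITF, PMEL, MLANA, TYR, DCT, S100B, S100A1 and PAX3). Of 17 markers of leukocytes, endothelium, epithelium and fibroblasts, 14 were below 1 FPKM in the 4 libraries, and their values together with DCN summed to 3.32 to 4.41 FPKM per library. The epithelial cadherin CDH1 stood at 20.8 and 27 FPKM under DMSO and the proteoglycan LUM at 52.2 and 73.3. CDH1 did not pass the test at 24 h (adjusted p = 0.911), and LUM stood at 38.4 and 47.9 FPKM (adjusted p = 0.161 unblocked and 0.00157 blocked).

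The replicate number carried over between the groups. Over the 12148 genes, the difference between replicate 1 and replicate 2 in DMSO correlated at 0.63 with the same difference at 24 h, a correlation across genes of 4 libraries. The 2 libraries at 24 h correlated at 0.974 with each other and at 0.985 and 0.983 with the 48 h library of the same number. Which step of the work the number stands for is not stated.

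**Figure D1:**
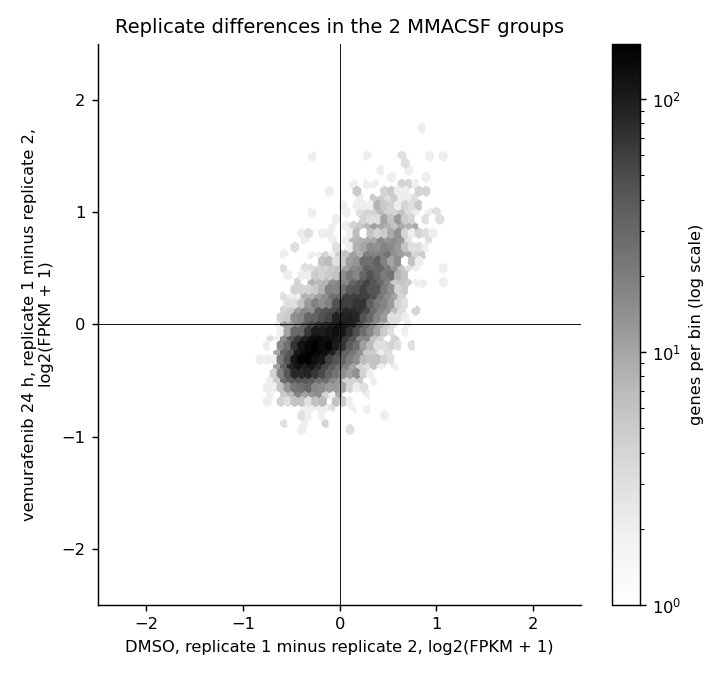
Difference between replicate 1 and replicate 2 in log2(FPKM + 1) for each of the 12148 tested genes, in DMSO on the horizontal axis and at 24 h of vemurafenib on the vertical axis. Darker bins hold more genes (log scale), and the cloud lies along the rising diagonal, with a correlation of 0.63; 16 genes lie outside the plotted range.

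At 24 h 563 genes (4.63% of those tested) were higher and 692 (5.7%) were lower than under DMSO. Of the 1255 changed genes, 417 rose and 537 fell by a log2 fold-change of at least 1. The genes that fell had a median of 27 FPKM under DMSO and 8.32 at 24 h. For those that rose it was 6.6 and 17.5 FPKM, and for the genes not called 9.99 and 10.7. Falls are called where DMSO is the higher group, so the order within each condition follows in part from the call. With the replicate number as a block 2573 genes (21.2%) were higher and 2243 (18.5%) lower, and these included all of the 1255. Every called gene had groups that did not overlap, but so did many others, since the vemurafenib libraries lay above both DMSO libraries for 34.6% of the tested genes and below both for 26.3%. The median log2 fold-change of all tested genes was 0.07. The counts fell to 128 higher and 294 lower without DMSO replicate 1, to 148 and 272 without DMSO replicate 2, to 249 and 399 without 24 h replicate 1 and to 196 and 354 without 24 h replicate 2.

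**Figure D2:**
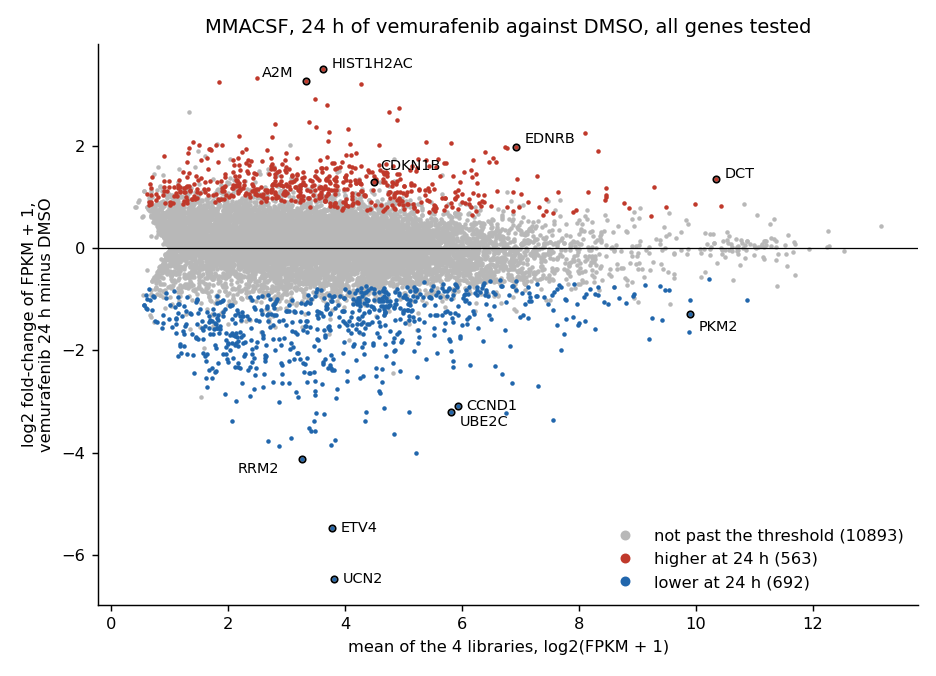
Log2 fold-change of FPKM + 1 from DMSO to 24 h of vemurafenib against the mean log2(FPKM + 1) of the 4 libraries, 1 point per tested gene. Red marks the 563 genes that were higher, blue the 692 that were lower and grey the others; the deepest falls are those of UCN2 and ETV4, and the lower genes reach further from 0 than the higher ones.

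The deepest fall was that of UCN2 (urocortin 2, a secreted peptide of the corticotropin-releasing family; chr3:48599151-48601214 on GRCh37). It stood at 136 and 126 FPKM under DMSO and at 0.857 and 0.179 FPKM at 24 h, a log2 fold-change of -6.48 ± 0.234 (SE, n = 2 libraries per group, adjusted p = 0.000111). Next was ETV4, an ETS transcription factor (chr17:41605212-41656988), with 101 and 79.4 FPKM under DMSO and 1.08 and 1.01 at 24 h. Its log2 fold-change was -5.47 ± 0.192 (adjusted p = 0.000111). Both genes went from strong expression to about 1 FPKM or less in both replicates. MAFF, a small basic leucine zipper factor, fell from 158 and 138 to 8.79 and 7.74 FPKM (log2 fold-change -4.01 ± 0.157). SLC16A6, a monocarboxylate transporter family member, fell from 22.5 and 32.2 to 0.816 and 1.01 FPKM (log2 fold-change -3.87 ± 0.213). The rest of the 15 deepest falls past the threshold were RRM2, FOSL1, CDC45, MYBL2, CDC6, VGF, SPRY4, PFKFB4, CXCL1, AURKB and E2F1, described with their groups.

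The highest rise was that of the histone gene HIST1H2AC, with 2 and 3.5 FPKM under DMSO and 63.7 and 25.4 at 24 h (log2 fold-change 3.49 ± 0.402, adjusted p = 0.00176). The libraries at 24 h were well apart from each other for this gene, and both were far above DMSO. KCNJ13, an inward rectifier potassium channel (chr2:233630512-233641275), rose from 0.706 and 0.867 to 13.8 and 20.7 FPKM (log2 fold-change 3.33 ± 0.245). A2M (alpha-2-macroglobulin, a secreted protease inhibitor; chr12:9220260-9268825) rose from 2.28 and 2.18 to 29.1 and 31.2 FPKM (log2 fold-change 3.27 ± 0.168). ANGPTL7, a secreted angiopoietin-like protein, went from 0.116 and 0.211 FPKM, below the minimum, to 9.51 and 10.5 FPKM. Others among the 15 highest rises that passed the threshold were APOD, a lipid-binding lipocalin, from 10.7 and 10.6 to 72.1 and 81.8 FPKM, AIF1L from 3.36 and 2.76 to 28.9 and 30.2, SIDT2 from 11.6 and 11.1 to 69.6 and 68.3 and the smooth muscle actin ACTA2 from 3.06 and 3.8 to 24.3 and 22.8. MATN2, HIST1H2BD and HIST2H2BE appear with their groups. ABHD11-AS1, LOC100652768 and LOC100130275 were also in this set, with log2 fold-changes of 2.42, 2.37 and 2.33. The strand setting of the counting is not stated, so reads of the antisense gene ABHD11-AS1 cannot be told from those of its partner.

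Many, but not all, of the transcripts that ERK is known to sustain were lower at 24 h. Among the feedback regulators of MAPK signalling 6 of 11 tested members fell and 0 rose, with a median log2 fold-change of -1.23 against 0.07 for all genes. SPRY4, a Sprouty inhibitor of receptor signalling (chr5:141689992-141706020), stood at 35.1 and 36.4 FPKM under DMSO and at 1.92 and 2.28 at 24 h (log2 fold-change -3.57 ± 0.16, adjusted p = 0.000113). The phosphatases DUSP4 and DUSP6, which remove phosphate from ERK, fell less. DUSP4 went from 80.1 and 83.9 to 23.6 and 25.6 FPKM and DUSP6 from 40.4 and 40.9 to 11.7 and 12.7 FPKM, with log2 fold-changes of -1.70 ± 0.129 and -1.66 ± 0.137. SPRY1, SPRY2 and DUSP5 fell as well, and 7 fell with the block. SPRED1, DUSP7, RASA2 and IL17RD did not pass the test with or without the block, and SPRED2 passed with it. Without 1 library the number of falls was 4 to 6.

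Of 20 tested immediate-early, AP-1, ETS and EGR factors, 7 fell and 0 rose (median log2 fold-change -0.73), or 11 and 2 with the block. Among all tested genes 5.7% were lower and 4.63% higher, or 18.5% and 21.2% with the block. FOSL1, the AP-1 subunit known as FRA1, fell from 55.2 and 46.6 to 2.78 and 2.35 FPKM (log2 fold-change -3.86 ± 0.172). The ETS factor ETV5 fell from 68.6 and 79.2 to 7.17 and 7.9 FPKM (-3.13 ± 0.147), and ETV1, EGR1, EGR3 and MYC fell by 2.22, 2.09, 1.42 and 1.74 on the log2 scale. JUN, another AP-1 subunit, was higher in both treated libraries. It stood at 11.4 and 9.03 FPKM under DMSO and 28.4 and 16.6 at 24 h, a log2 fold-change of 1.03 ± 0.257 that missed the threshold (adjusted p = 0.0284) and passed with the block (adjusted p = 0.000988).

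Among 13 other genes known to follow ERK, 8 fell and 0 rose (10 and 0 with the block, median -0.92), with 3 to 4 falls when 1 library was left out. The neuropeptide precursor VGF stood at 149.7 and 65.7 FPKM under DMSO and at 12.1 and 4.01 at 24 h (log2 fold-change -3.63 ± 0.516), and replicate 2 was the lower library in both groups. The chemokine CXCL1 fell from 32.6 and 36.1 to 1.77 and 2.38 FPKM, and TNC, the matrix protein tenascin C, from 156 and 153 to 29.8 and 31.9 FPKM. The RAS, RAF, MEK and ERK genes themselves showed no call among 15 tested (median 0.18). With the block 3 were higher and 1 lower, near or below the 21.2% and 18.5% of all genes. The largest changes there were those of the scaffold KSR1, with 0.608 and 0.901 FPKM under DMSO and 2.14 and 2.04 at 24 h (adjusted p = 0.0134), and of RAP1GAP, with 1.25 and 1.19 FPKM under DMSO against 2.71 and 2.78 (adjusted p = 0.0135). BRAF was at 3.3 and 3.51 FPKM under DMSO and 4.77 and 5.45 at 24 h (log2 fold-change 0.47 ± 0.165, adjusted p = 0.0788, with the block 0.00779).

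**Figure D3:**
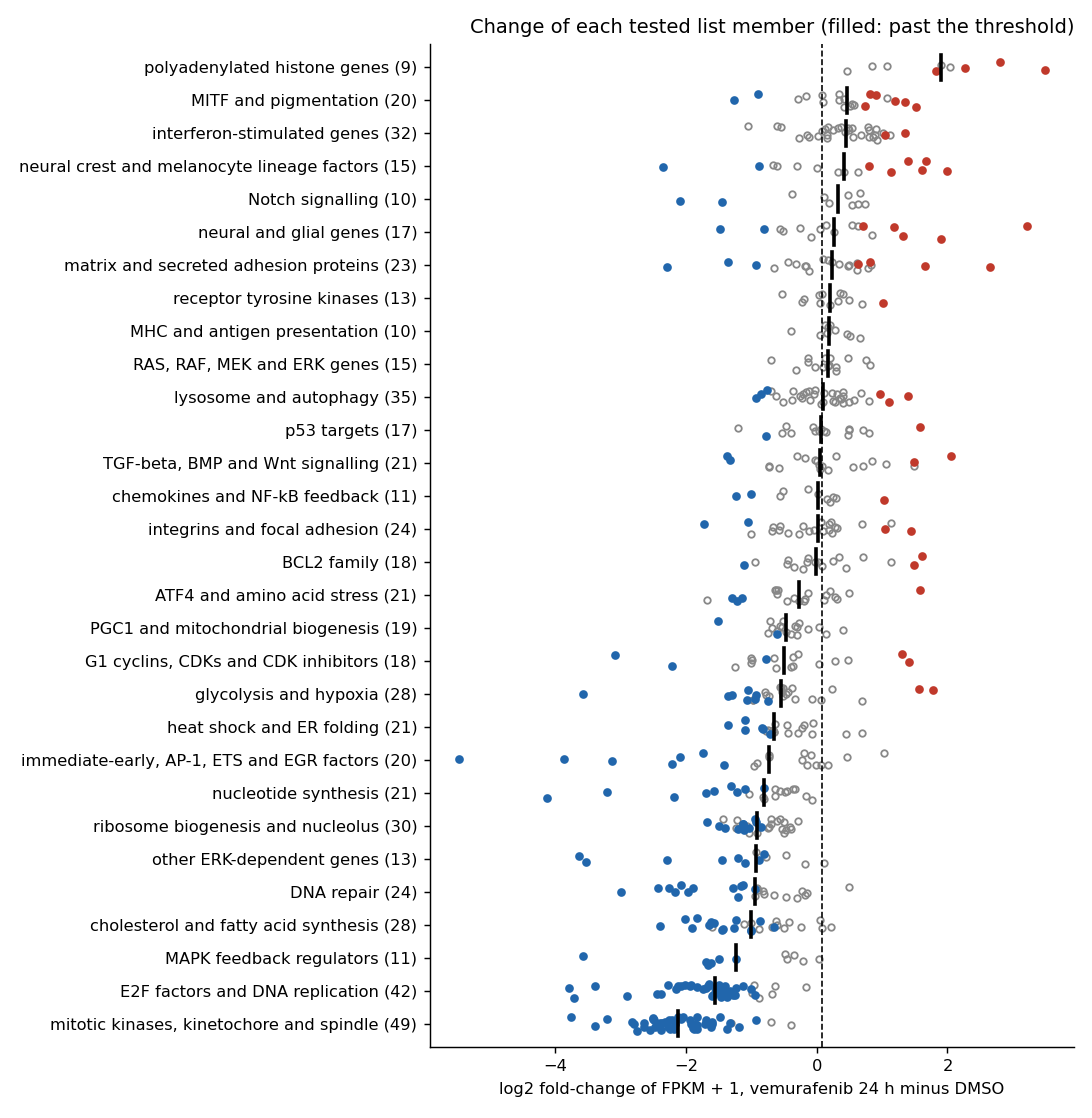
Log2 fold-change of FPKM + 1 from DMSO to 24 h for every tested member of the gene lists (number tested in brackets), sorted by the list median (black bar). Filled points passed the threshold (red higher, blue lower), the dashed line is the median of all tested genes at 0.07, and the mitotic and DNA replication lists lie furthest to the left.

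Among the genes of cell-cycle entry, cyclin D1 was lower at 24 h. CCND1 (chr11:69455924-69469242) fell from 168 and 184 FPKM under DMSO to 21 and 18.8 at 24 h, a log2 fold-change of -3.08 ± 0.132 (adjusted p = 0.000113). CDKN1B, which encodes the CDK inhibitor p27 (chr12:12838432-12875303), rose from 13.2 and 13.6 to 34.3 and 34.6 FPKM (1.30 ± 0.129, adjusted p = 0.000946), while the inhibitor p21, CDKN1A, fell from 48.3 and 44.5 to 28.1 and 25.5 FPKM (-0.77 ± 0.134). For all 3 genes the replicates lay close together. Their groups did not overlap, which also held for many other genes (34.6% of those tested above both DMSO libraries, 26.3% below). The change of CDKN1A was the smallest of the 3, with an adjusted p of 0.0077. The S phase cyclin CCNE2 fell from 4.68 and 6.74 to 0.497 and 0.364 FPKM, and CCNG2, a cyclin of resting cells, rose from 3.08 and 4.14 to 9.79 and 12.6 FPKM. In all 2 of 18 tested G1 cyclins, CDKs and CDK inhibitors rose and 3 fell, and 4 and 9 did so with the block. The shares over all genes were 4.63% higher and 5.7% lower, or 21.2% and 18.5% with the block. Without 1 library 1 rose and 2 to 3 fell.

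Most of the replication machinery fell. Of 42 tested E2F factors and replication genes 36 fell and 0 rose, with a median log2 fold-change of -1.56 and a range from -3.78 to -0.17. With the block 40 fell, and without 1 library 23 to 28 did. CDC45, part of the replicative helicase, went from 23.7 and 22.1 to 0.743 and 0.731 FPKM (-3.78 ± 0.185). CDC6, which loads that helicase, went from 26.9 and 32.2 to 1.01 and 1.69 FPKM (-3.71 ± 0.203), and E2F1, the factor that drives both, from 40.1 and 29.8 to 2.08 and 2.76 FPKM (-3.39 ± 0.21). Of 21 genes of nucleotide synthesis 9 fell and 0 rose (18 fell with the block, 4 to 7 without 1 library). RRM2, the small subunit of ribonucleotide reductase, fell from 34.9 and 43.8 to 1.13 and 1.5 FPKM (-4.12 ± 0.188), thymidine kinase TK1 from 67.6 and 55.1 to 6.6 and 4.95 FPKM and thymidylate synthase TYMS from 39.6 and 36 to 7.53 and 7.49 FPKM.

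Of the 32 lists examined, the mitotic genes had the largest share of falls. All 49 tested members were below DMSO in both libraries, against 26.3% of all genes. Of these 46 passed the threshold (49 with the block, 35 to 45 without 1 library), and the median log2 fold-change was -2.12. MYBL2, the B-MYB factor of the late cell cycle, fell from 56.6 and 46.2 to 3.25 and 2.47 FPKM (-3.76 ± 0.195). Aurora kinase B, AURKB, fell from 71 and 58.3 to 6.18 and 4.45 FPKM (-3.39 ± 0.195), and UBE2C, an enzyme that marks mitotic cyclins for destruction, from 168 and 169 to 18.8 and 16 FPKM (-3.21 ± 0.167). The proliferation marker MKI67 stood at 10 and 11 FPKM under DMSO and 1.04 and 1.37 at 24 h (-2.39 ± 0.168). In bulk RNA fewer cycling cells cannot be told from less of these transcripts per cell. Of 24 tested DNA repair genes 12 fell and 0 rose (median -0.94, 19 falls and 1 rise with the block, 6 to 7 falls without 1 library). The largest falls were those of EXO1, a nuclease, from 10.1 and 12.7 to 0.554 and 0.538 FPKM, and of RAD54L, a motor protein of recombination, from 6.82 and 7.03 to 0.666 and 0.312 FPKM.

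Polyadenylated histone genes went the other way. Canonical histone mRNAs lack a poly(A) tail and are made in S phase, and the genes of this list are those known to give tailed transcripts in cells that have left the cycle. Of 14 listed genes 9 were tested, 4 rose and 0 fell (5 and 0 with the block), and the median log2 fold-change was 1.90. HIST1H2BD rose from 3.25 and 4.64 to 33.7 and 32.7 FPKM (2.80 ± 0.177), HIST2H2BE from 4.96 and 5.02 to 27.3 and 28.3 FPKM (2.27 ± 0.138) and HIST1H1C, a linker histone, from 8.11 and 6.97 to 34.6 and 24.7 FPKM (1.83 ± 0.204). Histone genes have near-identical copies, and how reads were shared between them is not stated, so the values of single copies are uncertain.

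Since the falling lists moved together, their promoters were searched for short motifs, chosen after the values were seen. Promoters are the 300 bases from 250 before to 50 after the RefSeq gene start on GRCh38.p14, and 9645 of the 12148 tested genes were matched by symbol (the start listed first was used). The motifs, sought on both strands, were the cell-cycle homology region TTTGAA (CHR), known from late cell-cycle promoters, the CCAAT box, and the E2F sites TTTCCCGC and TTTGGCGC. The CHR letters were present in 29 of 43 mitotic promoters (67.4%), in 20.3% of the promoters of all genes that fell, in 9.93% of those that rose and in 9.56% of those tested. The E2F letters were present in 19 of 37 replication promoters (51.4%), in 9.35% of all that fell, 0.946% of those that rose and 3.75% of those tested. CHR letters were in 1 of the 37 replication promoters and E2F letters in 2 of the 43 mitotic ones. A CCAAT box was found in 67.4% of mitotic and 59.5% of replication promoters, against 37.2% of those tested. The excess was not particular to cell-cycle lists. It was 63.6% in the cholesterol and fatty acid synthesis list and 33.3% in the ribosome biogenesis list, both described below. Among the promoters of all genes that fell it was 50.4%, and 36.4% among those that rose. Over the 27305 promoters of the RefSeq table the shares were 15.4% for CHR, 2.31% for E2F and 35.7% for CCAAT. These are counts of letters and not of bound sites. The mitotic and replication lists hold known cell-cycle genes, so their shares describe the lists and do not test the drug response. The promoters of all genes that fell include those of called members of these lists.

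Promoters with the motif that belong to deep falls of each list are shown, 2 for each, as examples of the sequence these counts rest on. Part of the genome was left out of this choice, so a list may hold a deeper fall with the motif. The promoters shown run 5′ to 3′ on the strand of the gene, with CHR, E2F and CCAAT letters of either strand in capitals. NUSAP1 (chr15:41332631-41332930, plus strand) organises the mitotic spindle and TOP2A (chr17:40417847-40418146, minus strand) untangles chromosomes. CDC6 (chr17:40287629-40287928, plus strand) and E2F1 (chr20:33686336-33686635, minus strand) hold TTTGGCGC near the gene start, and NUSAP1 holds it further upstream in addition to its CHR.
NUSAP1: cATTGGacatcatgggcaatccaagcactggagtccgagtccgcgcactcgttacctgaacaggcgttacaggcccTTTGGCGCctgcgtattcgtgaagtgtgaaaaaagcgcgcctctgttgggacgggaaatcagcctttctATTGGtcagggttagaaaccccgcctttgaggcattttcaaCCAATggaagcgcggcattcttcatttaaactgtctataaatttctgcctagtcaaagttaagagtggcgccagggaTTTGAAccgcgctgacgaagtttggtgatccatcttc
TOP2A: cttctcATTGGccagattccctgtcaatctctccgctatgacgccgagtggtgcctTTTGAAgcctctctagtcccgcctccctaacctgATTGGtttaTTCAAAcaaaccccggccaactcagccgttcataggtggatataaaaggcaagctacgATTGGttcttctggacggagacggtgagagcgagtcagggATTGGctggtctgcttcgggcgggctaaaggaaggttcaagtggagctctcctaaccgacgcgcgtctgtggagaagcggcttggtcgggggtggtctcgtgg
CDC6: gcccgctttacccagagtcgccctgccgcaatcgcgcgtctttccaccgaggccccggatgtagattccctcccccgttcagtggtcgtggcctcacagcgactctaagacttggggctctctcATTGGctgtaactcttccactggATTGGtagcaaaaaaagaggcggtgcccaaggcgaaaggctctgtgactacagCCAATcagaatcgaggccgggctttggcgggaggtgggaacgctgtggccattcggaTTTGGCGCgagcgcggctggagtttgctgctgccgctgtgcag
E2F1: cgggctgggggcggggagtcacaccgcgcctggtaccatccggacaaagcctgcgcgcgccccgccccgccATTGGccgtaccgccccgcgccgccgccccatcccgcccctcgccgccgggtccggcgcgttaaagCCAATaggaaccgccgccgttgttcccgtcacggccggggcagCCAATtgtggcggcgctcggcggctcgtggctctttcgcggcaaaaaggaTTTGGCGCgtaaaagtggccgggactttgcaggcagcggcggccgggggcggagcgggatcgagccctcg
NUSAP1 fell from 58 and 69.8 to 8.45 and 7.78 FPKM and TOP2A from 54 and 70.4 to 7.01 and 9.11 FPKM. Their log2 fold-changes were -2.83 ± 0.192 and -2.80 ± 0.213 (adjusted p = 0.000313 and 0.000443).

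Of 28 tested genes of cholesterol and fatty acid synthesis 15 fell and 0 rose (median log2 fold-change -1.01, 23 falls with the block, 7 to 8 without 1 library). DHCR7, the last enzyme of cholesterol synthesis, fell from 72.7 and 65.4 to 13.3 and 11.4 FPKM (-2.40 ± 0.148). HMGCS1, an early enzyme of the mevalonate route, fell from 61.9 and 82.4 to 15 and 19.2 FPKM, and the squalene epoxidase SQLE from 41.5 and 42 to 11.2 and 9.73 FPKM. Of 30 tested genes of ribosome biogenesis 11 fell and 0 rose (median -0.92). All 30 were below DMSO in both libraries, against 26.3% of all genes, and 27 fell with the block, against 18.5% of all genes, while 2 to 7 did without 1 library. The nucleolar LYAR fell from 14.5 and 15.9 to 4.29 and 3.81 FPKM, the pseudouridine synthase DKC1 from 34.5 and 34.9 to 11.2 and 12.2 and the snoRNP core protein NOP58 from 49.6 and 59.3 to 18 and 21.8.

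In the glycolysis and hypoxia list 8 of 28 members fell and 2 rose (20 and 3 with the block, 3 and 2 without any 1 of the 4 libraries). Over all genes 5.7% were lower and 4.63% higher, or 18.5% and 21.2% with the block. The regulator PFKFB4, which sets the level of the activator of phosphofructokinase, fell the most, from 39.5 and 35.9 to 2.35 and 2.17 FPKM (-3.57 ± 0.165). The interval of PFKFB4 (chr3:48555117-48599448 on GRCh37) overlaps that of UCN2 on the same strand. How reads were split between them is not stated. The enolase ENO1 fell from 1080.4 and 879 to 404 and 354 FPKM, and the pyruvate kinase gene listed as PKM2 from 1584 and 1400.3 to 624 and 594 FPKM (-1.29 ± 0.128). The 2 members that rose restrain glucose uptake and are no glycolytic enzymes. TXNIP rose from 20 and 21.8 to 59.2 and 67.8 FPKM and its relative ARRDC4 from 3.38 and 4.42 to 14.7 and 16.7 FPKM.

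Chaperone genes fell in 6 of 21 cases with 0 rises (14 and 1 with the block, median -0.65, against 5.7% of all genes lower, or 18.5% with the block), led by the mitochondrial pair HSPD1, from 340.5 and 418 to 139.5 and 156 FPKM, and HSPE1, from 287 and 231 to 125 and 115, and by the cytosolic HSP90AA1, from 494 and 554 to 236 and 253. Of 21 ATF4 and amino acid stress genes 3 fell and 1 rose (10 and 3 with the block, median -0.27). The glutamine transporter SLC1A5 fell from 75.8 and 67.9 to 28.4 and 28.7 FPKM, the pseudokinase TRIB3 from 11.9 and 10.4 to 3.96 and 4.39 and the serine synthesis enzyme PHGDH from 96.9 and 83.2 to 44.3 and 36.5. VLDLR, a lipoprotein receptor, rose from 8.73 and 10.1 to 30.5 and 29.5 FPKM. Mitochondrial biogenesis genes had 2 falls and 0 rises among 19 (12 and 1 with the block, median -0.47). These were PDK4, a brake on pyruvate dehydrogenase, from 10.8 and 14 to 3.15 and 4.27 FPKM, and ATP5B, the catalytic subunit of ATP synthase, from 1456 and 1496 to 959 and 986 FPKM. Without 1 library the falls were 1 to 2 for the chaperones, 1 to 2 for the ATF4 list and 0 to 1 for the mitochondrial list.

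Of 20 tested genes of the MITF and pigmentation list 6 rose and 2 fell (14 and 3 with the block, median log2 fold-change 0.46). Without 1 library 2 to 3 rose and 0 to 1 fell. Among all tested genes 4.63% were higher and 5.7% lower, or 21.2% and 18.5% with the block. DCT, an enzyme of melanin synthesis (chr13:95089065-95131936), rose from 758 and 869 to 1940 and 2203 FPKM (1.35 ± 0.133, adjusted p = 0.000952). MLPH, which ties melanosomes to myosin, rose from 43 and 38.6 to 122 and 116 FPKM (1.52 ± 0.122), and the melanosomal glycoprotein GPNMB from 382 and 440.1 to 898 and 982 FPKM (1.19 ± 0.129). The falls were those of MC1R, the melanocortin receptor, from 42.7 and 34.9 to 17.7 and 13.6 FPKM (-1.26 ± 0.191), and of the melanosomal transporter SLC45A2, from 353 and 404 to 193 and 210.2 FPKM (-0.90 ± 0.126). MITF itself, the master regulator, stood at 174 and 244 FPKM under DMSO and 195 and 249 at 24 h, and its groups overlapped (log2 fold-change 0.10 ± 0.215, adjusted p = 0.775).

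Of 15 tested neural crest and melanocyte lineage factors 6 rose and 2 fell (8 and 4 with the block, 3 to 5 rises and 1 fall without 1 library). Over all genes the shares were 4.63% higher and 5.7% lower, or 21.2% and 18.5% with the block. EDNRB, the endothelin receptor of melanoblasts (chr13:78469616-78549664), rose from 53.5 and 67.2 to 225 and 256 FPKM (1.99 ± 0.172). The AP-2 factor TFAP2A rose from 49.9 and 55 to 177 and 162 FPKM and the zinc finger factor ZEB2 from 13.4 and 17 to 43.3 and 53.4 FPKM. TFAP2C, a relative of TFAP2A, fell from 30.5 and 29 to 15.3 and 16 FPKM. SNAI1 fell from 7.18 and 5.83 to 0.477 and 0.459 FPKM while SNAI2 rose from 84.3 and 107 to 236 and 270.4. SNAI1 and SNAI2 thus changed in opposite directions within the same libraries, with log2 fold-changes of -2.35 ± 0.168 and 1.40 ± 0.168.

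Among 17 tested neural and glial genes 5 rose and 2 fell (8 and 4 with the block, 2 to 3 and 0 to 1 without 1 library). The shares over all genes were 4.63% higher and 5.7% lower, or 21.2% and 18.5% with the block. The cadherin CDH19 of glial precursors (1.32 ± 0.217) rose from 1.53 and 2.02 to 5.14 and 6.78 FPKM. The nerve growth factor receptor NGFR (chr17:47572655-47592370) fell from 3.86 and 2.35 to 0.529 and 0.357 FPKM (-1.49 ± 0.219, adjusted p = 0.00426, with the block 0.000453), and the intermediate filament nestin, NES, from 34.8 and 29.7 to 17.8 and 18 FPKM. S100B was at 857 and 782 FPKM under DMSO and 769.7 and 765 at 24 h (adjusted p = 0.611).

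Of 23 tested matrix and secreted adhesion genes 4 rose and 3 fell (10 and 6 with the block, 2 and 1 to 2 without 1 library). With the block 21.2% of all genes were higher and 18.5% lower. The matrilin MATN2 rose from 9.48 and 10 to 63.1 and 70.6 FPKM (2.66 ± 0.132), the gelatinase MMP2 from 31.1 and 26.9 to 96.2 and 90.5 and the laminin LAMB1 from 96 and 92.3 to 164 and 168. Beside TNC, the laminin chain LAMA1 fell from 37.1 and 35.2 to 12.5 and 14.7 FPKM and the protease inhibitor TIMP3 from 203 and 227 to 105 and 119 FPKM. THBS1, thrombospondin, stayed below 1 FPKM, at 0.214 and 0.307 under DMSO and 0.188 and 0.288 at 24 h, and was not tested. Of 24 integrin and focal adhesion genes 2 rose and 2 fell (5 and 7 with the block), against 4.63% and 5.7% of all genes. They were the tensins TNS3, from 45.3 and 43.5 to 122 and 123 FPKM, and TNS1, from 8.87 and 8.89 to 17.9 and 21.1, against the actin cross-linkers ACTN1, from 120.2 and 106 to 36.4 and 30.7, and ACTN4, from 168 and 140.3 to 82.8 and 65.3. Without 1 library 1 to 2 of them rose and 1 to 2 fell.

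Of 28 listed receptor tyrosine kinases 13 were tested, and ERBB2 was the 1 that rose (2 rose and 1 fell with the block), from 15.6 and 11.1 to 27.8 and 27.3 FPKM (1.01 ± 0.188, adjusted p = 0.00974). It did not pass without any 1 of the 4 libraries. EGFR was at 1.27 and 1.83 FPKM under DMSO and 2.37 and 2.15 at 24 h (adjusted p = 0.201), and AXL was below the minimum at 0.503 and 0.438 FPKM under DMSO and 0.455 and 0.255 at 24 h. In the TGF-beta, BMP and Wnt list 2 of 21 rose and 2 fell (6 and 6 with the block). The receptor TGFBR2 rose from 23.7 and 30.1 to 103 and 125 FPKM (2.05 ± 0.165) and the inhibitor of differentiation ID2 from 5.09 and 4.51 to 17 and 13.9 FPKM, while the Wnt antagonists DKK1 and SFRP1 fell, from 2.53 and 2.36 to 0.386 and 0.287 and from 28.6 and 31.6 to 10.4 and 12.5 FPKM. Of 10 tested Notch genes the target repressors HEY1 and HES1 fell, from 24.6 and 29.5 to 5.54 and 5.5 and from 32.8 and 30.6 to 11.9 and 10 FPKM, and none rose at the threshold (2 did with the block). Without 1 library 1 to 2 of the TGF-beta, BMP and Wnt genes rose and 0 to 1 fell, and 1 to 2 of the Notch genes fell. For all of these lists the shares over all genes were 4.63% higher and 5.7% lower, or 21.2% and 18.5% with the block.

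Of 18 tested members of the BCL2 family 2 rose and 1 fell (5 and 2 with the block), all 3 of them BH3-only initiators of apoptosis. The shares over all genes were 4.63% higher and 5.7% lower, or 21.2% and 18.5% with the block. BCL2L11, which encodes BIM (chr2:111876955-111926021), rose from 3.42 and 4.09 to 10.2 and 14.7 FPKM (1.48 ± 0.226, adjusted p = 0.00474), and BMF from 10.4 and 9.61 to 30.8 and 34.2 FPKM (1.60 ± 0.151). PMAIP1, which encodes NOXA, fell from 1.96 and 1.93 to 0.333 and 0.398 FPKM (-1.11 ± 0.151). The anti-apoptotic members did not pass the test. BCL2A1 stood at 139.7 and 161 FPKM under DMSO and 133 and 141 at 24 h (adjusted p = 0.487), MCL1 at 40.8 and 50.3 under DMSO against 43.5 and 52.5 (adjusted p = 0.789) and BCL2L1 at 40.2 and 43.5 under DMSO against 36.7 and 38.9 (adjusted p = 0.456). Of 17 p53 targets TP53INP1 rose, from 4.86 and 7.46 to 17.5 and 22.7 FPKM, and CDKN1A fell as given above (5 rose and 4 fell with the block). Without 1 library 1 to 2 members of the BCL2 family rose and 0 to 1 fell, and 0 to 1 of the p53 targets rose and 0 fell.

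Interferon-stimulated genes had 2 rises and 0 falls among 32 tested (10 and 1 with the block, median 0.45). The unblocked count is near the overall share, which was 4.63% higher and 5.7% lower. Both are parts of the factor that carries the type I interferon signal to DNA: STAT2 rose from 71.9 and 80.8 to 185 and 207 FPKM (1.35 ± 0.14) and IRF9 from 11.4 and 12.4 to 25.9 and 25.5 FPKM (1.05 ± 0.137). Of 24 listed antigen presentation genes 10 were tested and none passed, while 3 rose with the block. HLA-B was listed at 1.31 and 1.13 FPKM under DMSO and 3.27 and 1.34 at 24 h (adjusted p = 0.222). Of 737 list genes in the table, 22 are listed at 0 in all 12 libraries, among them HLA-C, TAP1, PSMB8, NEU1 and HSPA1A, which most cells use. No change can be read for those genes, and the HLA genes also share sequence with each other. In the list of chemokines and NF-kB feedback NFKBIZ and TNFAIP3 fell, from 15.1 and 17.9 to 5.67 and 7.3 and from 2.9 and 2.88 to 0.841 and 1.03 FPKM, and the cytokine CSF1 rose from 5.6 and 6.04 to 13.5 and 12.3 FPKM (of 11 tested, 4 fell and 1 rose with the block). Of 35 lysosome and autophagy genes 3 rose (CTSF, CTSK and GABARAPL1) and 3 fell (CTSB, WIPI1 and SQSTM1), with 12 and 8 under the block, against 4.63% and 5.7% of all genes and 21.2% and 18.5% under the block. The largest of these 6 changes was that of the cathepsin CTSF, from 47.9 and 39.7 to 125 and 108 FPKM (1.39 ± 0.163). Without 1 library 1 of the interferon-stimulated genes rose, 0 to 1 of the NF-kB list fell and none of it rose, and 1 to 3 of the lysosomal genes rose and 0 fell.

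**Figure D4:**
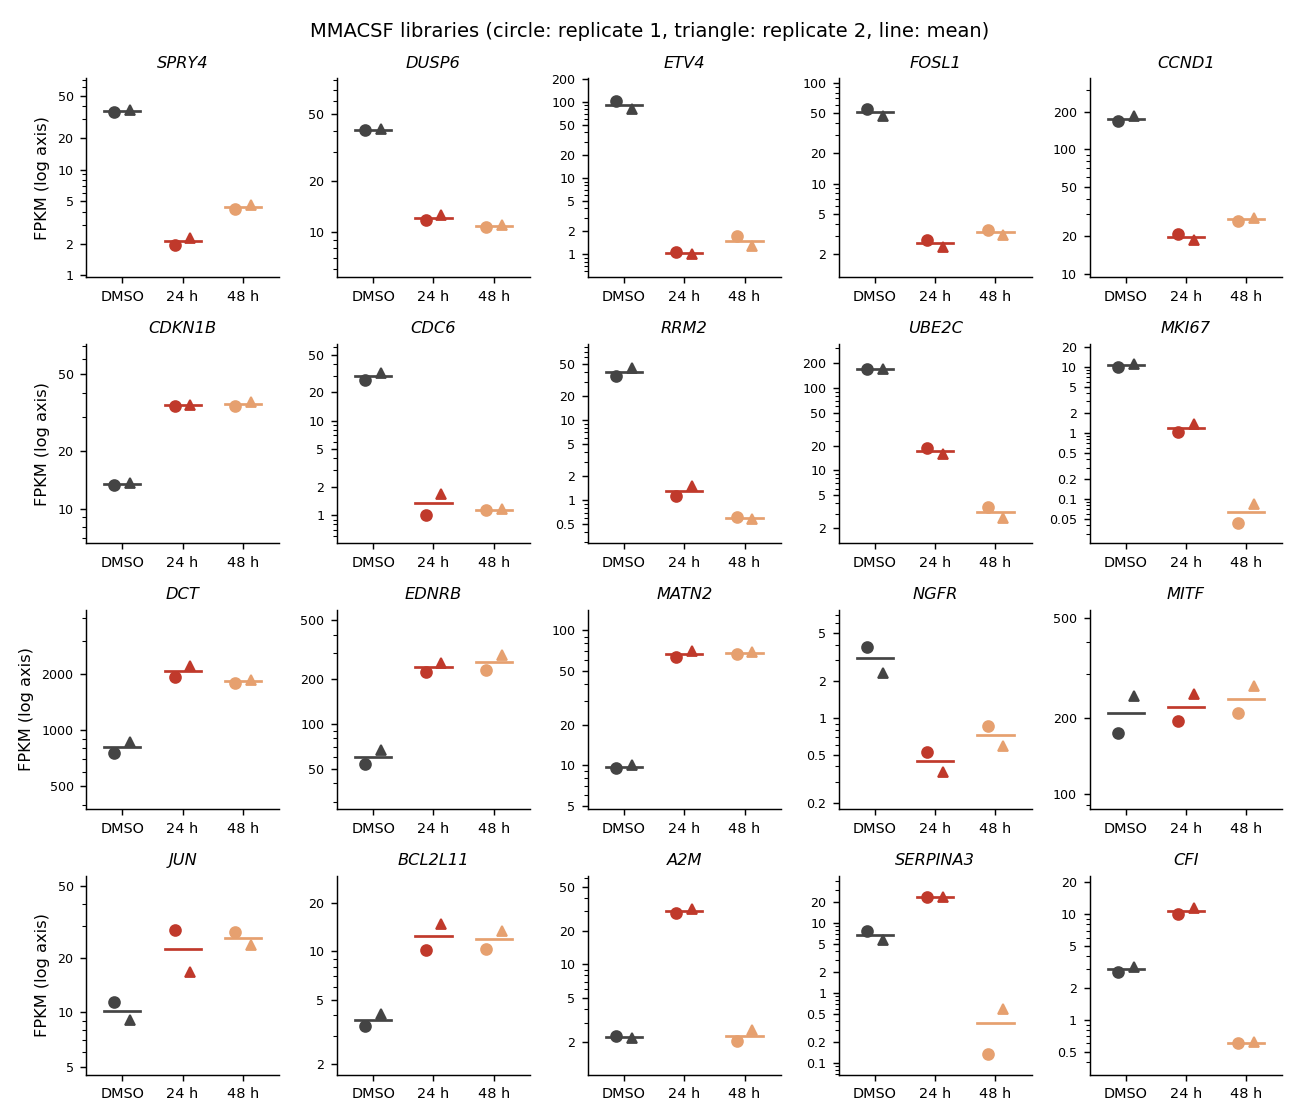
FPKM (log axis) of named genes in each MMACSF library under DMSO and at 24 and 48 h of vemurafenib (circles replicate 1, triangles replicate 2, lines group means). The signalling and cell-cycle genes drop at 24 h while CDKN1B, DCT, EDNRB and MATN2 rise, and A2M, SERPINA3 and CFI are higher at 24 h than at either other condition.

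Between 24 and 48 h of drug few genes passed the threshold. Without the block 17 genes were lower at 48 h than at 24 h (0.14% of those tested) and 0 were higher, while 265 were higher and 566 lower before adjustment at 0.05. In the blocked fit 58 (0.477%) rose and 184 (1.51%) fell. Without 1 library of either time 2 to 5 fell. In the mitotic list the median change from 24 to 48 h was -0.99 and 3 genes fell at the threshold. UBE2C reached 3.59 and 2.64 FPKM, TOP2A reached 0.654 and 1.01, and KIF20A, a kinesin of cytokinesis that had gone from 15.4 and 16.5 to 4.29 and 4.92 FPKM, reached 0.396 and 0.365. MKI67 stood at 0.043 and 0.0852 FPKM at 48 h (adjusted p = 0.0723 unblocked and 0.00764 blocked). The replication list had a median of -0.05 over this step and the MAPK feedback list one of 0.19, with 0 calls in either. SPRY4 was at 4.26 and 4.64 FPKM at 48 h (adjusted p = 0.145 unblocked and 0.00593 blocked).

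Some genes rose and fell again. Those given here were chosen after their values were seen. A2M, at 2.28 and 2.18 FPKM under DMSO and 29.1 and 31.2 at 24 h, was back at 2.03 and 2.55 FPKM at 48 h (log2 change from 24 h -3.25, adjusted p = 0.00162). The serine protease inhibitor SERPINA3 went from 7.58 and 5.82 to 23.5 and 23.4 and then to 0.137 and 0.602 FPKM, ending below its level under DMSO. The complement protease CFI did likewise, with 2.84 and 3.16, 9.98 and 11.5 and 0.602 and 0.61 FPKM at the 3 conditions. ANGPTL7 went to 2.02 and 1.76 FPKM at 48 h. ENPP2 (autotaxin), a secreted phospholipase, went from 13.2 and 15.8 to 39.2 and 45.8 and 7.19 and 8.81 FPKM, and CD48, a leukocyte surface protein, from 0.529 and 0.651 to 3.58 and 4.94 and 0.19 and 0 FPKM. These 6 genes passed the threshold in both steps. Both steps use the same 24 h libraries, so the tests are not independent. A shift particular to those libraries would show in both. SOCS3, the feedback inhibitor of STAT3 signalling, showed the same course at 7.15 and 5.46, 16.7 and 13.5 and 2.37 and 1.6 FPKM, and its rise missed the threshold (adjusted p = 0.0105 unblocked and 0.000167 blocked). HLA-DQA1, of MHC class II, stood at 10.3 and 11.5, 19.6 and 16.5 and 2.71 and 2.41 FPKM, and its fall from 24 to 48 h passed while its rise did not (adjusted p = 0.0294 unblocked and 0.00329 blocked), with the limit on HLA genes given above.

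The 24 h change of MMACSF was then set against that of COLO858, by an interaction test over all 12 libraries and 13056 genes. The change differed for 4.3% of genes, being more positive in MMACSF for 301 (2.31%) and less positive for 260 (1.99%), or for 1536 (11.8%) and 1486 (11.4%) with the block. Without 1 library the counts were 130 to 193 and 123 to 156. Fitted on its own, COLO858 had 761 genes higher (6.23%) and 978 lower (8.01%) at 24 h. Of the genes that rose in MMACSF 260 also rose in COLO858, which is 46.2% of the rises in MMACSF and 34.2% of those in COLO858. Of the falls 430 were shared, 62.1% and 44% of each.

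Many of the genes with the largest differences were weak or little changed in MMACSF. THBS1 was below 1 FPKM in MMACSF and went from 1.18 and 1.31 to 45.2 and 44.2 FPKM in COLO858 (MMACSF minus COLO858 -4.37 ± 0.176 on the log2 scale). The matricellular NOV went from 9.6 and 11.9 to 14.7 and 16 FPKM in MMACSF and from 3.07 and 4.52 to 78 and 91.5 in COLO858. S100B and JUN differed in the same sense, by -2.10 ± 0.138 and -2.13 ± 0.367. In contrast 9 genes passed in both lines in opposite directions, among them TIMP3, which fell in MMACSF as given above and rose from 60 and 63.4 to 269 and 287 FPKM in COLO858 (difference -3.09 ± 0.172), and the axon guidance gene NAV2, which fell from 31.2 and 28.9 to 10.1 and 13.7 FPKM in MMACSF and rose from 0.987 and 1.11 to 20.8 and 22.1 FPKM in COLO858. The others were LYPD1, PLAT, DAAM2 and SLAIN1, which fell in MMACSF, and IGFBP3, ABLIM3 and KIAA1199, which rose there. They were picked out after their values were seen.

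Rises larger in MMACSF were those of CDKN1B, from 55.5 and 66.2 to 71.2 and 71.1 FPKM in COLO858 (difference 1.07 ± 0.187, adjusted p = 0.00676), of A2M (1.64 ± 0.225) and of APOD (2.13 ± 0.181). CXCL1, which fell in MMACSF, was near 0 in COLO858 throughout, and UCN2 fell further in MMACSF by 2.46 on the log2 scale. In the pigmentation list 8 of 20 members had a less positive change in MMACSF and 0 a more positive one, or 11 and 3 with the block. DCT, for example, rose from 252 and 283 to 2788 and 3042 FPKM in COLO858, a difference of -2.10 ± 0.163. EDNRB rose from 7.46 and 9.65 to 164 and 193 FPKM in COLO858, a difference of -2.25 ± 0.271. Under DMSO both DCT and EDNRB were listed lower in COLO858 than in MMACSF. The replication list had the smaller falls by its median, with 8 of 42 members more positive (27 with the block) and medians of -1.56 in MMACSF and -2.58 in COLO858, while none of the 49 mitotic genes differed at the threshold (19 were more positive and 1 less with the block). NGFR fell in MMACSF and stood at 2.89 and 2.82 FPKM under DMSO and 1.96 and 1.36 at 24 h in COLO858, and its difference missed the threshold without the block and passed with it (adjusted p = 0.0812 and 0.00345).

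**Figure D5:**
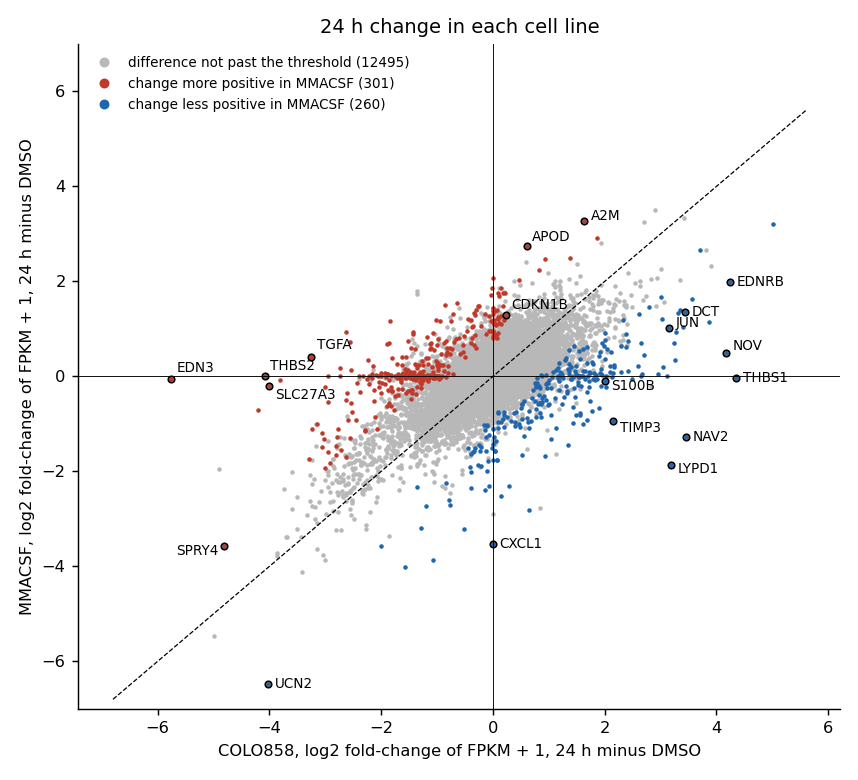
Log2 fold-change of FPKM + 1 from DMSO to 24 h in COLO858 (horizontal) and MMACSF (vertical) for 13056 genes, with the line of equal change dashed. Red marks the 301 genes with a more positive and blue the 260 with a less positive change in MMACSF; EDN3, THBS2 and THBS1, below 1 FPKM in MMACSF, lie on its horizontal axis, and LYPD1, NAV2 and TIMP3 lie below it.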

How the data were processed

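RNA-seq was made from 12 libraries of poly(A) RNA, with stranded preparation and single-end reads per the paper's methods. The authors aligned reads to hg19 with TopHat, and the deposited values are FPKM from Cuffdiff. Versions, annotation, library scaling and strand setting are not given in the sources used here, and no counts were used, so depth is unknown.

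Samples were grouped by their labels. limma 3.58.1 (R 4.3.3) was fitted to log2(FPKM + 1) with a trended prior over the 6 MMACSF libraries, for genes averaging 1 FPKM or more in either group, without small RNA genes (MIR, SNORD, SNORA and SCARNA symbols). The threshold was a Benjamini-Hochberg adjusted p under 0.01. The replicate number was added as a block in a second fit, because replicate differences of DMSO and 24 h correlated at 0.63; nothing states what the number marks. The lines were compared by an interaction over 12 libraries, from tables that were deposited separately.

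Named genes were, per list, the 3 largest changes in each direction past the threshold, and over all genes the 15 largest, with 5 for each further comparison and 14 genes always given. Some of these are not reported here. Other genes named were chosen after their values were seen. Members and lists were chosen with earlier results of these data known. Coordinates are GRCh37 (GENCODE), and promoters are RefSeq GRCh38.p14. Scripts were tested on simulated data. Alternatives were another pseudocount, minimum, scaling, spread, trend and threshold, small RNA genes kept, and each library left out.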

Additional observations from a re-analysis of the deposited data

Results flagged for a closer look

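These genes stand out because the 24 h change in MMACSF differed from that in COLO858 by the interaction test (MMACSF minus COLO858 on the log2(FPKM + 1) scale, limma, adjusted over 13056 genes). The list holds the 5 largest differences in each direction and those of the genes always reported.

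LYPD1 fell in MMACSF from 14.6 and 15.3 to 2.95 and 3.89 FPKM and rose in COLO858 from 1.05 and 1.27 to 20.4 and 17.1 FPKM, a difference of -5.05 ± 0.216 (SE, n = 2 libraries per group, adjusted p = 5.44e-06). NAV2, given above, differed by -4.73 ± 0.217 (adjusted p = 6.48e-06), THBS1 by -4.37 ± 0.176 (adjusted p = 4.86e-06) and NOV by -3.69 ± 0.29 (adjusted p = 0.000119). CXCL1 fell in MMACSF and was at 0.108 and 0 FPKM under DMSO in COLO858, with a difference of -3.53 ± 0.197 (adjusted p = 1.98e-05).

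In the other direction the endothelin gene EDN3, at or near 0 in MMACSF, fell in COLO858 from 138 and 139 to 1.95 and 1.22 FPKM, a difference of 5.70 ± 0.206. THBS2 stood at 0.693 and 0.659 and then 0.675 and 0.697 FPKM in MMACSF and fell from 725 and 723 to 44 and 39.7 in COLO858, a difference of 4.09 ± 0.18. NPR1, a natriuretic peptide receptor, was below 0.1 FPKM in MMACSF and fell from 34.5 and 27.8 to 1.63 and 0.967 FPKM in COLO858 (3.73 ± 0.22). SLC27A3 was at 6.4 and 3.34 FPKM under DMSO and 5.09 and 3.02 at 24 h in MMACSF and fell from 81.1 and 58.1 to 3.39 and 3.29 in COLO858 (3.81 ± 0.465, adjusted p = 0.00106). The EGFR ligand TGFA was at 1.81 and 1.95 FPKM under DMSO and 2.84 and 2.8 at 24 h in MMACSF and fell from 45.6 and 56.3 to 3.62 and 5.32 in COLO858 (3.67 ± 0.26).

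Of the genes always reported, JUN rose in COLO858 from 0.956 and 0.643 to 17.5 and 12.8 FPKM (difference -2.13 ± 0.367, adjusted p = 0.00625), S100B rose from 113 and 113 to 444 and 468 FPKM (difference -2.10 ± 0.138) and CDKN1B differed by 1.07 ± 0.187. The 2 lines were deposited as separate tables, whose relative scaling was not tested.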

How the results depend on the processing

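At 24 h with the replicate block 2573 genes were higher and 2243 lower, and with the block on the 4 compared libraries only 2753 and 2449. The higher genes numbered 301 with no minimum and 316 with small RNA genes kept, and a threshold of 0.05 gave 1522 higher and 1460 lower. Leaving out 1 library gave 128 to 249 higher and 272 to 399 lower. Rescaling by median ratios (530 and 827), 0.1 FPKM added (567 and 638), a minimum of 10 FPKM (376 and 506), no trend (538 and 641) and the spread of the 4 libraries alone (389 and 565) stayed within 1.5 times of the counts reported. Rescaling took the median of all genes from 0.07 to 0.01 and the share of calls that were higher from 44.9% to 39.1%, and the block took it to 53.4%.

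From 24 to 48 h the higher genes numbered 58 with the block, 2 with no minimum, 8 with small RNA genes kept, 1 on the compared libraries and 1 at 0.05, and 0 without 1 library. The lower ones numbered 184 with the block, 4 with no minimum, 52 at 0.05 and 2 to 5 without 1 library.

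The line difference counted 1536 more and 1486 less positive genes with the block, 699 and 596 at 0.05 and 141 and 127 on the compared libraries. The more positive ones numbered 177 with 0.1 FPKM added and 151 with a minimum of 10 FPKM. Without 1 library they were 130 to 193 and 123 to 156. No called change of a named gene turned direction under an alternative. Among named genes not called, MITF went from 0.10 to -0.15 without DMSO replicate 1 and to -0.08 without 24 h replicate 2, SLC27A3 from -0.20 to 0.19 and 0.10, and DCN also turned. The cause of these shifts was not tested. The replicate correlation of 0.63 rests on 2 numbers per line. Unknown depth and 2 libraries per group limit calls on weak genes.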

Other observations

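Genes outside the lists, chosen after their values were seen, also moved at 24 h. The tubulin genes TUBA1B, TUBA1C and TUBB4B fell. TUBA1B went from 413 and 389 to 58.5 and 62.8 FPKM (log2 fold-change -2.71 ± 0.119), TUBA1C from 132 and 126 to 22.7 and 26.9 (-2.34 ± 0.139) and TUBB4B from 228 and 193 to 50.2 and 34.6 (-2.30 ± 0.202). Tubulin genes are close copies, and how shared reads were split is not stated. MXI1 and MXD4, partners of MAX known to oppose MYC, rose. MXI1 went from 33.8 and 45.6 to 119 and 145 FPKM (1.72 ± 0.196) and MXD4 from 7.05 and 5.72 to 24 and 18.2 (1.58 ± 0.187). HBP1, a repressor of cell-cycle genes, rose from 14.5 and 19.7 to 42.3 and 54.4 FPKM (1.45 ± 0.197).

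The stress cytokine GDF15 fell from 857 and 426 to 87 and 38 FPKM (-3.37 ± 0.492, adjusted p = 0.00413), and its replicates were about as far apart in both groups. The metallothionein MT2A fell from 333 and 319 to 42 and 27.6 FPKM (-3.22 ± 0.212) and NT5E, the ecto-nucleotidase CD73, from 11.1 and 12.2 to 2.32 and 3.03 FPKM (-1.78 ± 0.183). The semaphorins SEMA3C and SEMA6A, known from axon guidance, rose. SEMA3C went from 17.1 and 22.7 to 60.3 and 76.8 FPKM (1.74 ± 0.201) and SEMA6A from 21.5 and 22.6 to 69.7 and 80.5 (1.72 ± 0.142). The sestrin SESN3 rose from 13.9 and 14.7 to 39.3 and 42.2 FPKM (1.45 ± 0.134) and IRS2, an adaptor of the insulin receptor, from 13.4 and 9.97 to 40.7 and 25.8 (1.41 ± 0.253). The complement proteases C1R and C1S rose from 13.7 and 13.5 to 43.1 and 46.5 and from 22.7 and 25 to 70.2 and 79.9 FPKM. The transcription factor SOX4 rose from 20.4 and 18.4 to 90.1 and 80.1 FPKM (2.08 ± 0.142) and the MITF-linked coactivator CITED1 from 11.6 and 10.3 to 46.5 and 47.8 (2.01 ± 0.13).

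The M-box letters TCATGTG, known as a binding motif of MITF, were in 5 of 17 promoters of the pigmentation list (29.4%), against 1.63% of the promoters tested and 3.31% of those of genes that rose. That list was made up around MITF and pigmentation, so its share describes the list and does not test the 24 h response. AP-1 letters TGACTCA were in 3.6% of promoters of genes that fell, 3.78% of those that rose and 2.88% of those tested.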
